A study of Mus musculus with 19 samples.

Results

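The mitosis and G2 genes are 45 genes of the late cell cycle, chosen by name from their known roles in entry into mitosis, the spindle, the kinetochore, the spindle checkpoint and cytokinesis. The list was drawn up with earlier results of these data known, so its counts beside those of all probes are a description. All 45 were found among the 20660 named genes of the array, on 62 of its 55681 probes, and 40 of the 45 were bright enough in lung to be tested. They were examined in whole lung of 18 male mice, about 12 weeks old, of the transgenic MutaMouse strain, which is used for mutation assays. The animals received olive oil or a mixture of 8 polycyclic aromatic hydrocarbons (8PAH-Mix) in olive oil by gavage each day for 28 days, and lungs were collected 72 h later. The groups were D0 (olive oil only, 5 mice) and 15, 30 and 60 mg benzo[a]pyrene (BaP) equivalents per kg body weight per day, named D1 (4 mice), D2 (5 mice) and D3 (4 mice). Each array set lung RNA, labelled with Cy5, against a common reference RNA from mouse cell lines, labelled with Cy3, and every value is a log2 ratio of lung over reference or a difference between such ratios. The question was how the RNA of the mitotic machinery changed over the dose series.

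Cells enter mitosis when the kinase CDK1, bound to cyclin A or cyclin B, becomes active at the end of G2. The chromosomes then condense, attach through their kinetochores to spindle microtubules, and separate once the spindle checkpoint releases the anaphase-promoting complex (APC/C), which marks cyclin B for destruction. RNA of most of these genes is made mainly in G2 and mitosis, so that it is low in tissues with few dividing cells, such as the adult lung. In whole lung RNA, fewer cells of a type and less RNA per cell cannot be told apart.

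Many promoters of late cell cycle genes carry a cell cycle genes homology region (CHR), the element to which MuvB complexes bind through LIN54, and one or more CCAAT boxes, which NF-Y binds. In RefSeq promoter windows of GRCm38.p6, from 250 bases before the gene start to 50 bases after it, 37 of the 45 genes matched, with 39 promoters. The CHR was searched as TTTGAA and the CCAAT box as CCAAT, both on either strand, and a match of one can share 1 base with a match of the other. The CHR letters stood in 71.8% of the 39 promoters, in 49.4% of 83 promoters of other mitosis genes, in 12.8% of 47 promoters of S phase genes and in 17.9% of all 32851 promoters. CCAAT letters were found in 76.9% of the mitosis and G2 promoters and in 37.4% of all promoters, and 2 or more copies in 53.8% and 11.7%. CHR and CCAAT letters occurred together in 64.1% of the mitosis and G2 promoters and in 7.0% of all promoters. The E-box letters CACGTG, searched as a motif of another kind, stood in 5.1% of the mitosis and G2 promoters and in 7.2% of all. Of the 35 CHR matches in the mitosis and G2 promoters, where the paired windows of Ect2 and of Prc1 can hold the same match, 77.1% lay within 50 bases of the gene start, against 25.3% of the 6737 matches in all promoters.

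**Figure D1:**
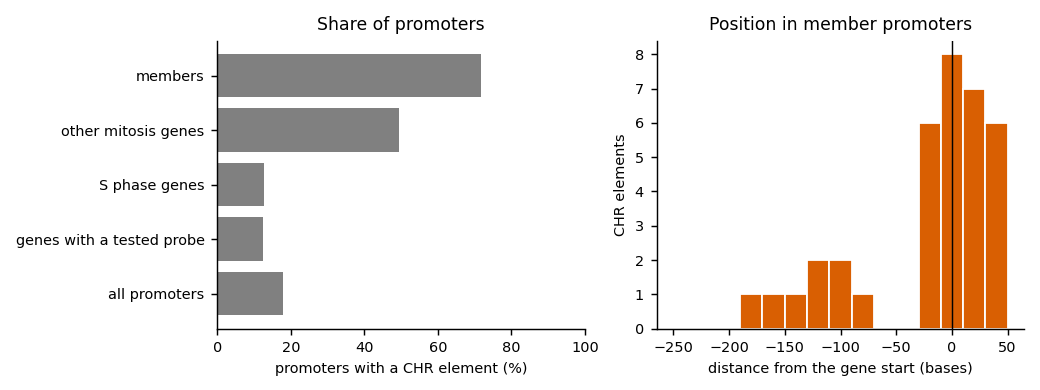
Left, percent of promoter windows of each gene list that hold the CHR letters on either strand. Right, number of CHR matches in the mitosis and G2 promoters against distance from the gene start in bases, with 0 at the start. The bars reach 71.8% for the mitosis and G2 genes and 17.9% for all promoters, and most matches lie close to the start.

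Promoter windows of 5 genes are shown with CHR and CCAAT letters (or their reverse complement) in capitals: Spc25, Birc5 and Mki67 had the largest changes at D1, Cdc20 has the compact CCAAT-CHR-CCAAT arrangement, and Hmmr, which holds both kinds of letters, was the 1 tested gene with a D1 mean below D0.
Spc25 promoter, chr2:69206164-69206463, minus strand: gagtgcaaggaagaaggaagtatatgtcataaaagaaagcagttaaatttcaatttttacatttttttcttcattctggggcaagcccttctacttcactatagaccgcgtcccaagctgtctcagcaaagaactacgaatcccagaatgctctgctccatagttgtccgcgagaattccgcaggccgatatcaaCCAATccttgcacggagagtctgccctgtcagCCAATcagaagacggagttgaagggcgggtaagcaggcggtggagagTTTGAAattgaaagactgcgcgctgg
Birc5 promoter, chr11:117848987-117849286, plus strand: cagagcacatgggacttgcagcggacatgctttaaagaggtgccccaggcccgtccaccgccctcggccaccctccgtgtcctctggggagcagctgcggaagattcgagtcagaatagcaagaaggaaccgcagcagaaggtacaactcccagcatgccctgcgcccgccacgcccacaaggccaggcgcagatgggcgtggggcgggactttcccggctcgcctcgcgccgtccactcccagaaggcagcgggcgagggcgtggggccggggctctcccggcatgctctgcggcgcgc
Mki67 promoter, chr7:135716330-135716629, minus strand: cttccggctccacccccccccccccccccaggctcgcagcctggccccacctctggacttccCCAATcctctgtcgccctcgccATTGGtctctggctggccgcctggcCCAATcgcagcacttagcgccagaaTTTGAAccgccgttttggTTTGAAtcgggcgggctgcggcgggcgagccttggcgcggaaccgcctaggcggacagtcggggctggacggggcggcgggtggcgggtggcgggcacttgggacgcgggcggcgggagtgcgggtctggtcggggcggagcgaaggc
Cdc20 promoter, chr4:118437294-118437593, minus strand: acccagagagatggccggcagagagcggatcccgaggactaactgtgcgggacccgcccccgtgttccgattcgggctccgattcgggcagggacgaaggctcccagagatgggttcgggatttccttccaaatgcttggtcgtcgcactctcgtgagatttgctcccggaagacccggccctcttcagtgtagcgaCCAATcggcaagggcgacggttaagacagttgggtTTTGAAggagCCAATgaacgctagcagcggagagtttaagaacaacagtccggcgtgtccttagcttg
Hmmr promoter, chr11:40733388-40733687, minus strand: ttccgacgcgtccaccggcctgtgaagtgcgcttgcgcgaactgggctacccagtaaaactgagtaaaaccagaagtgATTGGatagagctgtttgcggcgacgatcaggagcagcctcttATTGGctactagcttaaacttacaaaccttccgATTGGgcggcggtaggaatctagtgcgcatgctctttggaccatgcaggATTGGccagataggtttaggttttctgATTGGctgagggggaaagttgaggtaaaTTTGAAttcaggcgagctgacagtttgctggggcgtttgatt
In Spc25 the CHR letters began 25 bases after the start, in Hmmr 9 bases after it, and in Cdc20 at position -18. Mki67 held CHR letters at positions -116 and -98, and no capitals appear in the Birc5 window. The 23 tested genes with CHR letters had a median log2 change of 0.71, with 15 called higher, and the 11 without CHR letters a median of 0.67, with 7 called higher.

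All 40 tested genes were below the reference RNA in D0 lung, with mean log2 ratios from -4.37 for Birc5 to -1.13 for Hmmr. The reference is made from cultured cell lines. Of the 40 genes, 36 reached the brightness limit (lung signal well above background in at least 4 mice of a group) in every group, Bub1 and Kif4 in 3 groups, Nuf2 in 2 groups and Kif2c in D1 alone. Kif2c passed through the group where it was highest, and Nuf2 through D1 and D2. The 5 genes not tested were Cdk1, Cdc25c, Ttk, Aurkb and Cenpf. In the reference channel Aurkb was not well above background on any of the 19 arrays and the Cdk1 probe with the brightest lung signal was so on 15, while Cdc25c, Ttk and Cenpf were so on all 19.

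A gene was called where it differed by 1.5-fold or more and its p from limma, adjusted by Benjamini-Hochberg over all 31088 tested probes, did not exceed 0.05. By its probe with the brightest lung signal, 26 of the 40 genes were called higher at D1, 8 at D2 and 1 at D3, and none was called lower than in D0 at any dose. Over all tested probes, 0.592% were called higher at D1, 0.434% at D2 and 1.2% at D3, and 0.463%, 0.19% and 1.22% lower. In either direction this came to 1.06%, 0.624% and 2.43%. The array as a whole thus had its most calls at D3, where the mitosis and G2 genes had their fewest. Their median log2 change was 0.71 at D1, 0.46 at D2 and 0.22 at D3, while the median over all tested probes was within 0.01 of 0 at each dose. The fitted change was above 0 in 39, 37 and 35 of the 40 genes, against 51.7%, 48.9% and 49.6% of all probes. With the adjusted p alone, 33 genes were higher at D1, 14 at D2 and 2 at D3, against 2.4%, 1.36% and 5.99% of all probes. On the same criterion Hmmr alone was lower, at D3, where 6.33% of all probes were lower (2.31% at D1 and 0.714% at D2). With median centring in place of loess, 1 gene was called at D1 and none at D2 or D3, while 12, 18 and 98 of all probes were called and the median changes of the mitosis and G2 genes were 0.96, 0.61 and 0.38. With the scanner software's processed signals 30, 17 and 4 genes were called over the doses, and 5 were called at D2 without D0 mouse 3, D0 mouse 5 or D2 mouse 28.

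Every D1 mouse lay above every D0 mouse in 32 of the 40 genes, every D2 mouse in 17 and every D3 mouse in 8. This held for 4.73%, 2.51% and 7.45% of all tested probes. The group mean was highest at D1 in 37 genes, at D2 in 2 (Nek2 and Mad2l1) and at D0 in 1 (Hmmr). It was highest at D1 in 24.3% of all probes. In 31 genes the means ran from D1 down through D2 and D3 to D0, an order found in 3.86% of all probes. The 8 genes called at D2 (Ccna2, Cdc20, Mki67, Birc5, Cenpe, Spc25, Nusap1 and Aspm) were all called at D1 as well, and 18 genes were called at D1 alone. D1 and D2 were not compared by a test. The array labelled D2 Mouse 23 has a number among those of the D1 mice. With it counted in D1, the genes called numbered 25, 6 and 1 over the doses, and the D2 calls of Cdc20 and Nusap1 were lost.

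For each mouse, the log2 ratios of the 40 genes were averaged after the D0 mean of each gene had been taken off. The D0 mice lay between -0.09 and 0.06 (SD 0.077, n = 5). In D1 the mean was 0.70 ± 0.24 (SD, n = 4), with 0.62 in mouse 21, 0.41 in mouse 22, 0.82 in mouse 24 and 0.95 in mouse 25. In D2 it was 0.45 ± 0.18 (SD, n = 5), from 0.23 in mouse 29 to 0.70 in mouse 28. In D3 it was 0.23 ± 0.16 (SD, n = 4), with 0.21 in mice 31 and 32, 0.06 in mouse 34 and 0.44 in mouse 35. All D1 and D2 mice stood above all D0 mice, mouse 34 of D3 lay within the D0 range, and each dosed group overlapped the others.

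**Figure D2:**
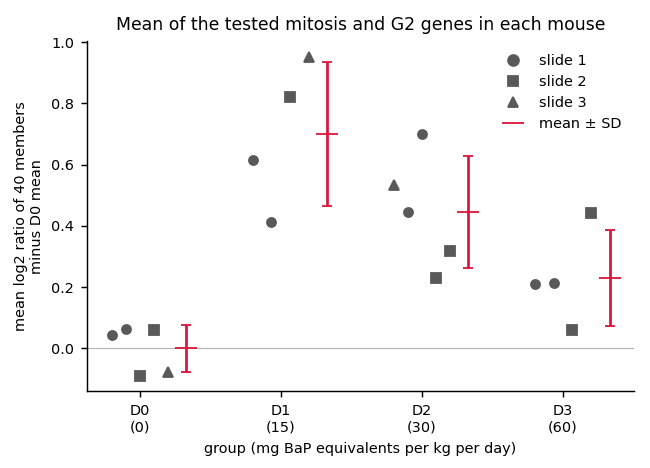
Mean over the 40 tested genes of the log2 ratio minus the D0 mean of each gene (vertical axis, log2), for each mouse by group, with the dose in mg BaP equivalents per kg per day. Grey symbols are mice, their shape gives the slide (slide 2 for mouse 35, which also had an array on slide 3), and red bars give the group mean and SD. D1 averages 0.70, D2 0.45 and D3 0.23, and the points of the dosed groups overlap.

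The arrays lay on 3 slides, and each slide held all 4 groups. The D1 mice stood above the D0 mice in 39 of the 40 genes on each of the 3 slides. D1 stood above D3 in 39 genes on slide 1 and in all 40 on slide 2, where D3 was mouse 34 and mouse 35, the latter as the mean of its arrays on slides 2 and 3. The order of D1 and D2 was not the same on all slides. On slide 1, which held D1 mice 21 and 22 and D2 mice 26 and 28, D1 was above D2 in 14 of 40 genes, and the mean over the genes was 0.51 in D1 and 0.57 in D2. On slide 2 D1 was above D2 in all 40 genes (0.82 and 0.28), and on slide 3 in 39 (0.95 and 0.53), each with a single D1 mouse. Dose followed the array column on each slide, and the effects of these cannot be told apart.

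**Figure D3:**
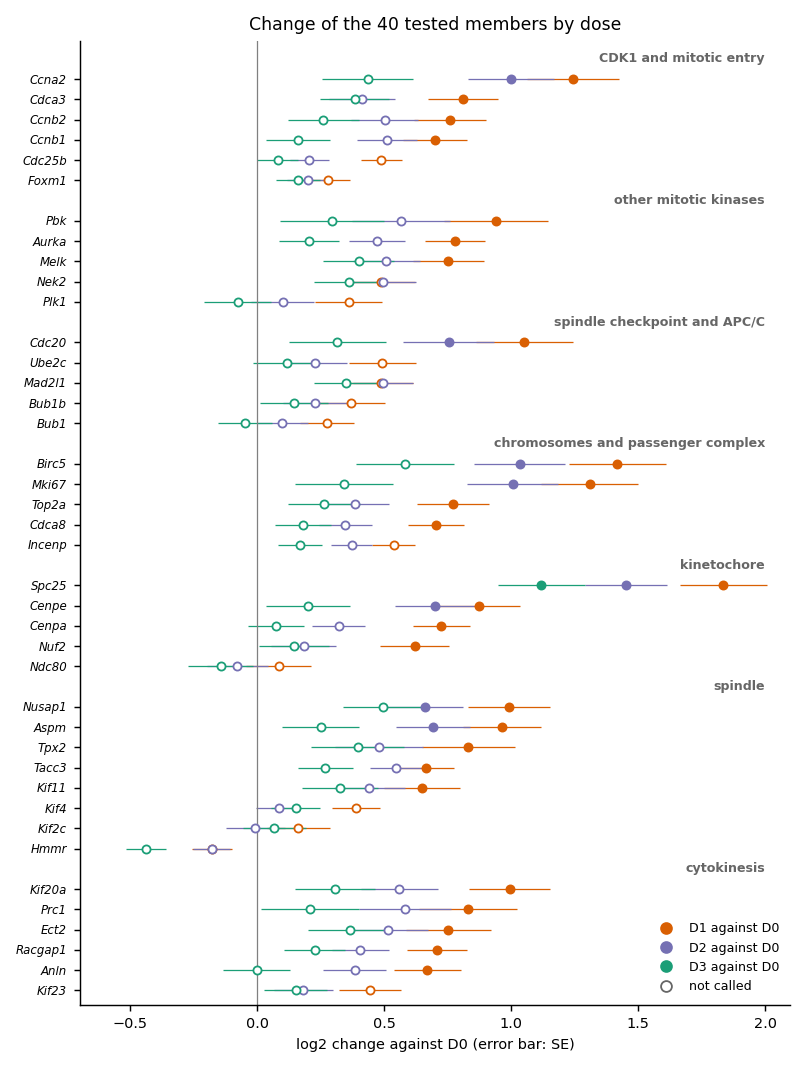
Log2 change against D0 of each of the 40 tested genes, grouped by role, at D1 (orange), D2 (purple) and D3 (green). Points are limma estimates with their SE, filled where the gene was called and open where it was not. In most rows the orange point lies farthest right and the green point nearest 0, and Spc25 is the gene with a filled green point.

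Among the genes of CDK1 and mitotic entry, 4 of 6 tested were called higher at D1, 1 at D2 and none at D3, with median log2 changes of 0.73, 0.46 and 0.21. Ccna2, the cyclin A of S phase and G2, had the largest change, 1.24 at D1 (SE 0.181, adjusted p = 0.00106), 1.00 at D2 (adjusted p = 0.00351) and 0.43 at D3 (adjusted p = 0.129). Ccnb1, the main mitotic cyclin, had log2 ratios of -4.17, -4.29, -4.21, -4.03 and -4.35 in the D0 mice, -3.58, -3.91, -3.21 and -3.35 in D1, -3.66, -3.44, -3.82, -3.72 and -3.85 in D2, and -4.06, -4.11, -4.25 and -3.79 in D3. The D1 and D2 mice all lay above the D0 mice, and the D3 mice overlapped them. The Ccnb1 change was 0.70 at D1 (1.62-fold, SE 0.126, adjusted p = 0.0037), 0.51 at D2 (1.43-fold, adjusted p = 0.0274) and 0.16 at D3 (adjusted p = 0.457). Ccnb1 has further probes with dimmer lung signals, which changed by 0.04 and 0.28 at D1 and were not called. Ccnb2, the other B-type cyclin, was 1.69-fold higher at D1 and Cdca3, which helps degrade the CDK1 inhibitor WEE1, 1.75-fold.

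Foxm1, the transcription factor that activates many G2 genes, had the smallest change of this group. Its log2 ratios were -2.90, -2.80, -2.83, -2.85 and -2.95 in D0, -2.69, -2.78, -2.44 and -2.45 in D1, -2.88, -2.49, -2.68, -2.64 and -2.65 in D2, and -2.79, -2.78, -2.66 and -2.59 in D3. The D1 mice all lay above the D0 mice, some by very little. The change was 0.28 at D1 (SE 0.0868, adjusted p = 0.0733), 0.20 at D2 and 0.16 at D3, and none was called. Cdc25b, a phosphatase that activates CDK1, passed the adjusted p at D1 (0.00232) at 1.40-fold, short of the fold limit.

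Cdk1 itself was too dim in lung to test. The log2 ratio of its brightest probe was -0.17, -0.44, -0.35, -0.46 and -0.41 in D0, -0.23, -0.50, -0.57 and -0.44 in D1, -0.24, -0.43, -0.35, -0.65 and -0.45 in D2, and -0.38, -0.27, -0.40 and -0.45 in D3. The groups overlap, and the lung signal was well above background in 1 D1 mouse and 1 D2 mouse. Cdc25c, the phosphatase that completes CDK1 activation, was well above background in 1 of 5 D0 mice and in 2 or 3 mice of each dosed group. Its mean log2 ratios were -2.13, -2.22, -2.25 and -2.13 from D0 to D3, and the groups overlapped.

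The other mitotic kinases had 3 of 5 called higher at D1 and none at D2 or D3 (medians 0.75, 0.50 and 0.30). Pbk, a kinase active in mitosis, had the largest D1 change, 0.94 (1.92-fold, SE 0.204, adjusted p = 0.012). Aurka, the kinase of the spindle poles, had mean log2 ratios of -3.96 ± 0.12 in D0, -3.18 ± 0.23 in D1, -3.49 ± 0.20 in D2 and -3.75 ± 0.19 in D3 (SD, n = 5, 4, 5 and 4). It was 1.71-fold higher at D1 (adjusted p = 0.00146) and 1.15-fold at D3 (adjusted p = 0.295). Melk was 1.69-fold higher at D1. Nek2, a kinase of centrosome separation, passed the adjusted p at D1 (0.0459) and D2 (0.0497) at 1.40-fold and 1.41-fold.

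Plk1, which drives mitotic entry, centrosome maturation and cytokinesis, had the smallest D1 change of the kinases. Its log2 ratios were -2.35, -2.36, -2.65, -2.56 and -2.21 in D0, -2.15, -2.22, -2.21 and -1.69 in D1, -2.20, -2.06, -2.59, -2.49 and -2.29 in D2, and -2.39, -2.49, -2.79 and -2.35 in D3. Mouse 25 stood apart from the other D1 mice, which overlapped the top of the D0 range. The change was 0.36 at D1 (SE 0.132, adjusted p = 0.126), 0.10 at D2 and -0.08 at D3, and none was called.

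In the spindle checkpoint and APC/C group, 1 of 5 tested genes was called at D1, the fewest of any role, and 1 at D2 (medians 0.49, 0.23 and 0.14 over the doses). That gene was Cdc20, the activator of the APC/C. Its log2 ratios were -3.78, -3.54, -3.55, -3.43 and -3.66 in D0, -2.60, -3.16, -2.29 and -2.11 in D1, -3.05, -2.41, -3.04, -3.04 and -2.64 in D2, and -3.31, -3.50, -3.52 and -2.77 in D3. All D1 and D2 mice exceeded all D0 mice, and mouse 35 of D3 lay within the D1 range. Cdc20 was 2.07-fold higher at D1 (log2 1.05, SE 0.191, adjusted p = 0.00377), 1.69-fold at D2 (adjusted p = 0.0318) and 1.24-fold at D3 (adjusted p = 0.315). The D2 call was lost under 10 of the alternatives, among them leaving out D0 mouse 1, 2, 3 or 5 or D2 mouse 28.

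Bub1, the kinase that recruits checkpoint proteins to kinetochores, had mean ratios of -3.70 ± 0.09 in D0, -3.43 ± 0.17 in D1, -3.60 ± 0.18 in D2 and -3.75 ± 0.19 in D3 (SD, n = 5, 4, 5 and 4), a D1 change of 0.27 (SE 0.106, adjusted p = 0.148). Bub1b (BUBR1) changed by 0.37 at D1 (adjusted p = 0.12). Mad2l1 (MAD2), which blocks CDC20, passed the adjusted p at D1 (0.0305) and D2 (0.0308), at 1.40-fold and 1.41-fold. Ttk (MPS1), the kinase that starts the checkpoint signal, was well above background in none of the D0 or D1 mice. Ube2c, the ubiquitin-conjugating enzyme of the APC/C, had a probe at 1.41-fold (adjusted p = 0.0386, not called) and a slightly dimmer probe at 1.85-fold (adjusted p = 0.00583, called). Its brighter probe had means of -2.99 ± 0.07, -2.49 ± 0.33, -2.76 ± 0.20 and -2.87 ± 0.19 from D0 to D3 (SD, n = 5, 4, 5 and 4).

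Genes of mitotic chromosomes and the chromosomal passenger complex, which corrects faulty attachments, had 4 of 5 tested genes called at D1, 2 at D2 and none at D3 (medians 0.77, 0.38 and 0.26). Birc5 (survivin), a passenger subunit, had log2 ratios of -4.56, -4.38, -4.37, -4.08 and -4.47 in D0, -3.10, -3.52, -2.58 and -2.62 in D1, -3.61, -3.06, -3.52, -3.32 and -3.19 in D2, and -4.07, -4.06, -3.83 and -3.20 in D3. Every dosed mouse stood above every D0 mouse, by little in mice 31 and 32. Birc5 was 2.67-fold higher at D1 (log2 1.42, SE 0.191, adjusted p = 0.000547), 2.05-fold at D2 (adjusted p = 0.0041) and had a log2 change of 0.58 at D3 (adjusted p = 0.0532). A dimmer Birc5 probe was called at D1 too, with a log2 change of 0.68.

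Mki67, which codes for the Ki-67 proliferation marker that coats mitotic chromosomes, had log2 ratios of -3.88, -3.89, -4.14, -3.76 and -3.86 in D0, -2.93, -3.02, -2.36 and -2.08 in D1, -2.91, -2.75, -3.08, -3.18 and -2.57 in D2, and -3.66, -3.77, -3.86 and -2.97 in D3. The D1 and D2 mice were all above the D0 mice, mice 31, 32 and 34 of D3 were at or near the D0 range, and mouse 35 was not. The change was 1.31 at D1 (2.48-fold, SE 0.191, adjusted p = 0.00107), 1.01 at D2 (2.01-fold, adjusted p = 0.00502) and 0.34 at D3 (1.27-fold, adjusted p = 0.274). A second Mki67 probe was called at D1 (1.53), at D2 and also at D3 (0.62, adjusted p = 0.0377).

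Top2a, the topoisomerase that untangles sister chromatids, had log2 ratios of -3.72, -3.77, -3.94, -3.89 and -4.05 in D0, -3.17, -3.28, -3.08 and -2.89 in D1, -3.25, -3.13, -3.78, -3.81 and -3.49 in D2, and -3.46, -3.61, -3.97 and -3.40 in D3. All D1 mice exceeded all mice of D0 and of D3. Top2a was 1.71-fold higher at D1 (log2 0.77, SE 0.141, adjusted p = 0.00403) and 1.31-fold at D2 and 1.20-fold at D3, where it was not called. Incenp, the scaffold of the passenger complex, had the smallest D1 change of this role, 0.54 (1.45-fold, adjusted p = 0.00195). Cdca8 (borealin) was called by its brighter probe at D1 (0.70) and not by its dimmer one (0.28). Aurkb, the kinase of the complex, had mean ratios of -0.14 ± 0.14, 0.12 ± 0.07, -0.09 ± 0.10 and -0.05 ± 0.02 from D0 to D3 (SD, n = 5, 4, 5 and 4) and was well above background in no mouse in either channel, so no change is given.

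The kinetochore genes included the largest change of all, in Spc25. SPC25 is a subunit of the NDC80 complex, which holds microtubules at the kinetochore. Its log2 ratios were -4.19, -4.04, -4.36, -4.21 and -4.50 in D0, -2.63, -2.85, -1.98 and -2.24 in D1, -2.66, -2.62, -3.12, -2.89 and -2.74 in D2, and -3.18, -3.41, -3.32 and -2.65 in D3. Every dosed mouse lay above every D0 mouse by a wide margin. Spc25 was 3.57-fold higher at D1 (log2 1.84, SE 0.170, adjusted p = 7.52e-06), 2.74-fold at D2 (adjusted p = 3.97e-05) and 2.17-fold at D3 (log2 1.12, adjusted p = 0.000357), and was the only one of the 40 called at D3 by its brightest probe. With the slide as a block, Birc5 was called at D3 too (log2 0.62, adjusted p = 0.0162).

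Ndc80, Nuf2 and Spc24 code for the other subunits of this complex. Spc24, which is not among the 45 genes, changed by 0.57 at D1 (adjusted p = 0.0345), short of the fold limit. Ndc80 changed by 0.08 at D1 (SE 0.129, adjusted p = 0.781) and -0.14 at D3, and Nuf2 by 0.62 at D1 (adjusted p = 0.0129) and 0.14 at D3. The probes of both were dim, with mean lung signals of 139 for Ndc80 and 135 for Nuf2 against 1016 for Spc25. Ratios of dim probes are shrunk without background subtraction, so sizes of change are not comparable between these subunits. Cenpa, the histone variant that marks the centromere, had mean ratios of -3.09 ± 0.05 in D0, -2.36 ± 0.13 in D1, -2.77 ± 0.28 in D2 and -3.01 ± 0.10 in D3 (SD, n = 5, 4, 5 and 4), with a D1 change of 0.73 (1.65-fold, adjusted p = 0.00153) and 0.07 at D3. Cenpe, the kinetochore motor, was called at D1 (1.83-fold) and D2 (1.62-fold). Cenpf was well above background in 2 D1 mice, 1 D2 mouse and no D0 or D3 mouse, and its mean ratios, -0.51 ± 0.11, -0.39 ± 0.17, -0.41 ± 0.20 and -0.41 ± 0.11 from D0 to D3 (SD, n = 5, 4, 5 and 4), overlapped. Over the doses, 4, 2 and 1 of the 5 tested kinetochore genes were called (medians 0.73, 0.32 and 0.14).

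**Figure D4:**
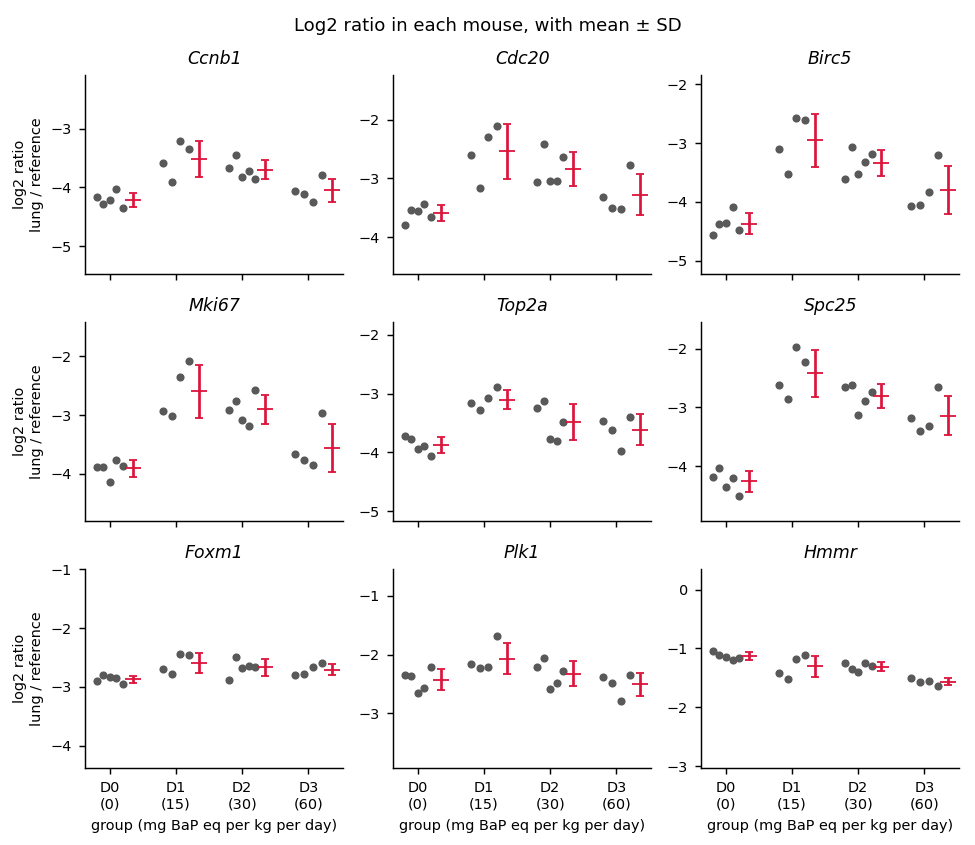
Log2 ratio of lung over reference RNA in each mouse for 9 genes, by group, with the dose in mg BaP equivalents per kg per day. Grey points are mice, red bars give the group mean and SD, and each panel spans the same height in log2 units. Spc25, Birc5 and Mki67 are raised most at D1, mouse 35 is the highest D3 point for these, and Hmmr falls slightly from D0 to D3.

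Spindle genes had 5 of 8 called at D1, 2 at D2 (Nusap1 and Aspm) and none at D3, with medians of 0.66, 0.46 and 0.26. Nusap1, which bundles microtubules near chromosomes, was 1.99-fold higher at D1 (SE 0.161 on the log2 scale, adjusted p = 0.00205), 1.58-fold at D2 (adjusted p = 0.0261) and 1.41-fold at D3 (adjusted p = 0.0494). Its D2 call was lost under 8 of the alternatives, among them leaving out D0 mouse 1, 3 or 5 or D2 mouse 23, 28 or 30. Tpx2, which activates AURKA on the spindle, had mean ratios of -4.27 ± 0.19, -3.44 ± 0.44, -3.79 ± 0.28 and -3.87 ± 0.31 from D0 to D3 (SD, n = 5, 4, 5 and 4) and was called at D1 (1.78-fold, adjusted p = 0.0135). Kif11, the motor that pushes the spindle poles apart, had means of -3.05 ± 0.22, -2.40 ± 0.26, -2.61 ± 0.29 and -2.72 ± 0.17 (SD, n = 5, 4, 5 and 4) and was called at D1 (1.57-fold, adjusted p = 0.0174). Without mouse 25 the D1 calls of Tpx2 and Kif11 were lost, and that of Kif11 also with the lung channel alone. Kif4, a chromosome motor on the X chromosome, had means of -2.57 ± 0.13, -2.18 ± 0.03, -2.49 ± 0.19 and -2.42 ± 0.13 (SD, n = 5, 4, 5 and 4) and passed the adjusted p at D1 (0.0248) at 1.31-fold. Kif2c, which depolymerizes microtubules at faulty attachments, changed by 0.16 at D1 (adjusted p = 0.513).

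Hmmr was the 1 gene of the 40 tested with a D1 mean below the D0 mean. It codes for a receptor of hyaluronan that is also a spindle protein. Its log2 ratios were -1.03, -1.11, -1.15, -1.19 and -1.16 in D0, -1.41, -1.51, -1.18 and -1.12 in D1, -1.24, -1.36, -1.40, -1.25 and -1.30 in D2, and -1.51, -1.57, -1.55 and -1.65 in D3. All D2 and D3 mice lay below all D0 mice. The change was -0.18 at D1 (adjusted p = 0.212), -0.18 at D2 (adjusted p = 0.248) and -0.44 at D3 (SE 0.0785, adjusted p = 0.00137), under the fold limit at 1.36-fold lower.

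Cytokinesis genes had 5 of 6 called at D1 and none at D2 or D3 (medians 0.73, 0.46 and 0.22). Kif20a, a motor of the central spindle, had the largest D1 change, 0.99 (SE 0.159, adjusted p = 0.00194), and Kif23, of the centralspindlin complex, the smallest, 0.44 (1.36-fold, adjusted p = 0.0447). Prc1, which crosslinks the central spindle, had means of -2.95 ± 0.09 in D0, -2.12 ± 0.44 in D1, -2.37 ± 0.19 in D2 and -2.74 ± 0.48 in D3 (SD, n = 5, 4, 5 and 4) and was 1.78-fold higher at D1 (adjusted p = 0.0179), a call lost without mouse 24 or mouse 25. Anln, which ties actin to the cleavage furrow, had means of -3.54 ± 0.09, -2.87 ± 0.37, -3.16 ± 0.17 and -3.54 ± 0.13 (SD, n = 5, 4, 5 and 4). It was 1.59-fold higher at D1 (adjusted p = 0.00619, lost without mouse 25) and within 0.01 of the D0 mean at D3. Racgap1, the partner of KIF23, had means of -4.15 ± 0.16, -3.45 ± 0.22, -3.75 ± 0.24 and -3.93 ± 0.09 (SD, n = 5, 4, 5 and 4) and was 1.63-fold higher at D1 (adjusted p = 0.00254). A second Racgap1 probe passed the adjusted p at 1.30-fold. Ect2, which switches on RHOA for the furrow, was 1.68-fold higher at D1 (adjusted p = 0.0134).

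D3 and D1 were compared directly in the same fit. All 40 genes had a lower mean at D3 than at D1, with a median log2 change of -0.46, from -0.97 for Mki67 to -0.09 for Kif2c. Over all tested probes, the median was -0.01. Only Cenpa was called (-0.65, SE 0.117, adjusted p = 0.0246), against 0.0354% of all tested probes called lower, 0.109% called higher and 0.145% called in either direction. With the adjusted p alone, 0.045% of all probes were lower and 0.161% higher, and 46.7% of all probes had a fitted change above 0. Its D1 ratios were -2.25, -2.45, -2.50 and -2.24 and its D3 ratios -2.88, -3.07, -3.00 and -3.10, with no overlap. Every D1 mouse lay above every D3 mouse in 14 of the 40 genes and in 2.41% of all probes. Mki67 (adjusted p = 0.0551) and Anln (adjusted p = 0.0536) were close to the threshold, and with the slide as a block these were called as well (adjusted p = 0.0266 and 0.0209), 3 in all. With mouse 23 counted in D1, 4 genes were called. The median fall was larger with the scanner software's processed signals, and the Cenpa call was lost with median centring in place of loess. The number called rested on single mice: it was 12 without D1 mouse 22, 3 without D3 mouse 35, and 0 without D1 mouse 21 or 25 or D3 mouse 32 or 34.

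Response size at D1 varied with the ratio to the reference. Of the 20 genes with the lowest mean log2 ratio over all mice (-3.88 to -3.08), 19 were called at D1 with a median change of 0.85. Of the 20 with the highest (-3.02 to -1.12), 7 were called, with a median of 0.49. The split shares the D0 mice with the change, and it is given as a description. Signals were used without background subtraction, which shrinks the ratios of dim probes. With the scanner software's signals, which differ in both background and dye correction, the median D1 change was 1.05 and 30 genes were called, and the parts of these corrections were not tested.

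Other gene lists of the cell cycle showed how far this dose pattern extended. Of 72 tested other mitosis genes, 15, 9 and 4 were called higher at D1, D2 and D3, with medians of 0.36, 0.24 and 0.20. The largest called D1 changes there were those of Ckap2 (1.32, adjusted p = 0.000228), a spindle protein, Pimreg (1.26, adjusted p = 0.00031) and Iqgap3 (1.18, adjusted p = 0.00107). Psrc1, a spindle protein, and Wee1, the kinase that inhibits CDK1, were highest at D3, and these and Sgo1 are named after their values were seen. Psrc1 changed by 0.39 at D1 (adjusted p = 0.0589), 0.33 at D2 and 1.09 at D3 (called) and was called higher at D3 than at D1 (0.70, adjusted p = 0.018). Pimreg (-1.12, adjusted p = 0.00657) and Sgo1 (-0.81, adjusted p = 0.03), a protector of sister chromatid cohesion, were called lower at D3 than at D1. From D0, Wee1 changed by 0.54 at D1 (not called), 0.94 at D2 and 1.00 at D3 (both called). Over the doses 3, 7 and 5 of 47 tested S phase genes were called higher (medians 0.32, 0.33 and 0.26). From D1 to D3 the median change was -0.15 for the other mitosis genes and -0.05 for the S phase genes, against -0.46 for the mitosis and G2 genes. The 3 doses share the D0 mice, and the difference between lists was not tested. Of 23 tested cell cycle arrest genes, 2, 3 and 2 were called higher over the doses (medians 0.22, 0.16 and 0.08). Cdkn1a of that list, the p53-induced inhibitor of cyclin-dependent kinases (p21), rose at every dose, by 1.95 at D1 (adjusted p = 6.21e-07), 1.96 at D2 (adjusted p = 2.08e-07) and 3.12 at D3 (adjusted p = 1.48e-10), and was higher at D3 than at D1 (1.17, adjusted p = 0.00267).

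**Figure D5:**
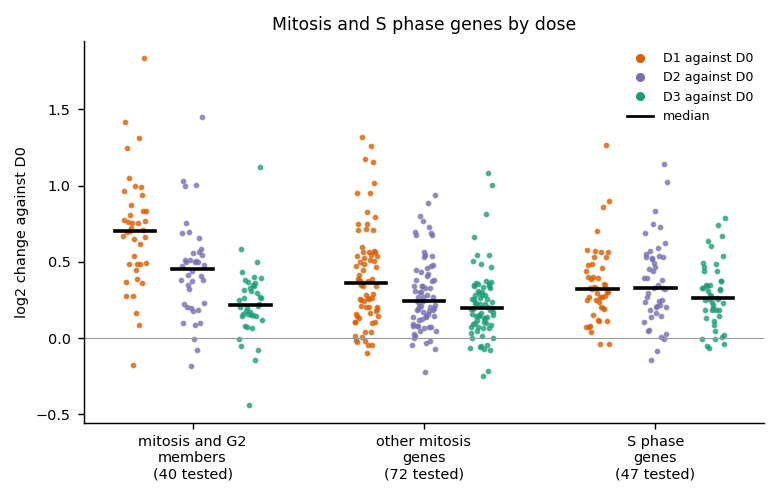
Log2 change against D0 (vertical axis) of each tested gene of 3 lists at D1 (orange), D2 (purple) and D3 (green), with the median as a black bar. Medians of the mitosis and G2 genes are 0.71, 0.46 and 0.22 and those of the S phase genes 0.32, 0.33 and 0.26.

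Markers of other cells were read on the same arrays. All markers on the array of alveolar type 1 (6), alveolar type 2 (8), endothelial (8), ciliated (7) and club cells (3) were well above background in all D0 mice. None of the alveolar type 1, alveolar type 2, ciliated or club cell markers was called at any dose, with medians over D1, D2 and D3 of -0.27, -0.10 and -0.12, of -0.31, -0.08 and -0.32, of -0.10, -0.11 and -0.25, and of -0.33, 0.06 and -0.36. At D1 none of the 8 alveolar type 2 markers had a fitted change above 0. Of the endothelial markers 1 was called higher at D1 and 2 at D3 (medians 0.03, 0.17 and 0.15), and of 7 fibroblast markers 1 was called lower at D3 (medians -0.13, 0.09 and -0.11). Of 8 tested neutrophil and granulocyte precursor markers, 1 was called higher at D1, none at D2 and 3 at D3 (medians 0.72, 0.51 and 0.71). Over all 9 of these markers on the array, the mean log2 ratio per mouse ran from 1.30 to 2.16 in D0, 1.96 to 2.47 in D1, 1.86 to 2.47 in D2 and 1.82 to 3.05 in D3. None of 6 tested B cell markers was called (medians 0.18, 0.35 and -0.11), nor of 6 erythroid precursor markers (0.07, 0.20 and 0.24) or 9 T cell markers (0.12, 0.32 and 0.42). Neither of 2 tested germinal centre B cell markers was called (medians 0.03, -0.05 and -0.07), nor was the 1 tested thymocyte marker (changes of -0.19, -0.21 and -0.18). The germinal centre marker Rgs13 and the thymocyte marker Rag1 were above background in no mouse. Of 5 plasma cell markers, 1 was called higher at D2 and 1 at D3, with 1 lower at D3 (medians 0.06, 0.08 and 0.16). Of 8 NK cell markers, 1, 1 and 2 were called lower over the doses (medians -0.30, -0.38 and -0.56), and of 10 alveolar macrophage markers 0, 1 and 2 (medians -0.13, -0.44 and -0.47). None of 6 cardiac muscle markers was called, and their mean ratio ran from 2.46 to 3.16 in D0 and from 0.54 to 4.74 in D1. The part of these cells in the result was not tested.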

How the data were processed

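Lung RNA of 18 mice was hybridized to 19 Agilent arrays (mouse 35 had 2, which were averaged). The authors deposited scanner intensity values, per the file headers median pixel signals and the software's background- and dye-corrected signals, and a table of log2 ratios they had normalized, used as an alternative. Following the study's methods, no background was subtracted from the median signals, and each array was normalized by loess (span 0.3). Control spots and outlier spots (171 to 323 per array) were left out. Probes of RefSeq identifiers were named through the GRCm38.p6 gene table (21465 of 22765 matched). A probe was tested where the lung signal was well above background in at least 4 mice of 1 group (31088 of 55681). The share of spots so marked was 54.5% to 64.7% per array. The number of arrays limits the precision. In place of MAANOVA, 1 model over the 4 groups was fitted by limma (version 3.58.1, R 4.3.3), after the code had been tested on simulated data. Log2 changes of 1 gene are those of its brightest probe. Named genes were 20 fixed lead genes, the largest and smallest D1 change of each role, genes called at D3, genes whose probes disagreed, 3 other mitosis genes and Cdkn1a; further genes were named after their values were seen. Members and lists were chosen with earlier results of these data known. The array labelled D2 Mouse 23 was kept in D2, although D1 mice bear the neighbouring numbers. By the methods' group sizes, D1 would hold 1 mouse more and D2 1 fewer than here. Dyes were not swapped.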

Additional observations from a re-analysis of the deposited data

Results flagged for a closer look

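Across 27 genes and the mean over the 40 tested genes, 112 groups of mice were looked at for a mouse far from the others. There were 2 such cases (1.8%), where chance gives about 1 in 20. Ccna2 in mouse 35 of D3 had a log2 ratio of -3.15, above the other D3 mice at -3.93, -3.86 and -3.84. Plk1 in mouse 25 of D1 had a log2 ratio of -1.69, above the other D1 mice at -2.15, -2.22 and -2.21. Cenpa differed between doses in the limma fit, by -0.65 at D3 against D1 (adjusted p = 0.0246).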

How the results depend on the processing

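No median or mean over the genes, and no called change of a named gene, changed direction under any alternative run. Changes that were not called were not checked for direction. The counts called at D1, D2, D3 and D3 against D1 (26, 8, 1 and 1) were the same with the deposited log2 table, without the filter on dim probes and with another present call. Median centring in place of loess gave 1, 0, 0 and 0 calls and medians of 0.96 at D1 and 0.38 at D3. It moved the median of all probes to 0.17 at D1 and 0.12 at D2, and the cause of the lost calls was not tested. The scanner software's processed signals gave 17 calls at D2 and 4 at D3, medians of 1.05 at D1 and -0.73 for D3 against D1, and means per mouse of 1.07 at D1 and 0.71 at D2. The adjusted p alone gave 14 at D2 and 3 at D3. At D3, 2 were called with every probe counted, with normexp, with the lung channel alone and with the slide as a block, and 3 with the arrays of mouse 35 kept apart. For D3 against D1, 3 were called with normexp, with the slide as a block and with the first array of mouse 35 alone, 2 with the lung channel alone and with its arrays apart, and 4 with mouse 23 counted in D1.

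Leaving out each mouse in turn gave 20 (without mouse 25) to 29 (without mouse 22) calls at D1, 5 (without D0 mouse 3 or 5 or D2 mouse 28) to 9 at D2, 1 to 2 at D3 and 0 to 12 for D3 against D1. The medians ranged from 0.64 to 0.81, 0.37 to 0.51, 0.15 to 0.30 and -0.57 to -0.39, and the means per mouse from 0.63 to 0.81, 0.38 to 0.50 and 0.16 to 0.29. The Cenpa call for D3 against D1 was lost under median centring and without D1 mouse 21 or 25 or D3 mouse 32, 34 or 35. No paired analysis was possible because the replicate numbers are animal numbers that no groups share (the slide, which all groups share, was used as a block above). Genes near background, such as Cdk1 and Aurkb, could not be measured in lung.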
